A study of Mus musculus with 6 samples.

Results

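The ubiquitin pathway attaches ubiquitin and related small proteins to other proteins and removes them again. A protein is marked in a relay, in which an activating enzyme passes ubiquitin to a conjugating enzyme and a ligase brings that enzyme to its substrate. Ligases of the cullin type recognise substrates through exchangeable adaptors such as F-box, BTB-kelch and SOCS-box proteins, deubiquitinases take the mark off, and the proteasome degrades marked proteins. In neurons the pathway is known for its part in the turnover of synaptic proteins. KHSRP, an RNA-binding protein, is known to promote the decay of mRNAs that carry AU-rich elements.

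Genes of this pathway were taken from the study's own list of changed probes by the start of their symbols, such as Usp, Ube, Fbx, Trim, Rnf, Klhl or Psm, and they numbered 62 of the 1714 genes named there. The 62 genes had 65 probes, of which 60, from 57 genes, stood among the probes listed as higher in *Khsrp*-/- and 5 among those listed as lower. The list itself held 1522 higher and 266 lower probes. The study reports many more lowered mRNAs than this list holds, so lower genes of the pathway can be missing here. The other tested probes of the list differed by at least 0.27 where listed as higher and by at least 0.64 in size where listed as lower. The 2 directions were thus unlike in size, and the split of the members between them is not read as a trait of the pathway. Because the list had been selected on measured values of the same contrast, the genotype differences of these genes are given as a description, with no test, and support nothing by themselves. No cullin or OTU-type deubiquitinase entered through the rule, and a gene with no place on the list has no symbol here and was not analysed.

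RNA came from the neocortex of adult mice labelled male, 3 with a constitutive knockout of *Khsrp* and 3 wild type littermates, and each mouse was hybridised to 1 array in 1 colour. The knockout is constitutive and so is not limited to neurons. In RNA of whole tissue, fewer cells of a type and less RNA per cell cannot be told apart. The share of spots well above background lay between 71.3% and 82.6% over the 6 arrays. Signals are given as log2 intensity minus the 75th percentile of the array, a scale on which 2 probes cannot be compared with each other, and differences are the *Khsrp*-/- mean minus the wild type mean. No probe named *Khsrp* was on the list, so the knockout itself was not checked. Array values are always listed in the order of replicates 1, 2 and 3. Scan times put *Khsrp*-/- array 1 on the same slide as wild type array 3, while the remaining arrays lay on slides of 1 genotype only.

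The arrays labelled *Khsrp*-/- 1 and 3 went against the label male. Genes of the Y chromosome, singled out after their values were seen, had low signals on these arrays and not on the other 4. *Uty*, a histone demethylase homologue, had a log2 signal of -3.42, 2.84 and -3.48 on *Khsrp*-/- arrays 1, 2 and 3, and of 2.51, 2.72 and 2.72 on wild type arrays 1, 2 and 3. *Kdm5d*, another histone demethylase, had -7.68, -1.45 and -6.92 against -1.66, -1.44 and -1.68. *Ddx3y*, an RNA helicase, had -7.68, -1.81 and -6.18 against -1.93, -1.92 and -2.20. *Eif2s3y*, a translation initiation factor subunit, had -2.79, -0.04 and -3.52 against -0.18, -0.10 and -0.18. The smallest gap between *Khsrp*-/- arrays 1 and 3 and the other arrays was 2.60, for *Eif2s3y*. *Khsrp*-/- array 2 alone matched the wild type arrays in these genes, so the main differences are also given for that array on its own. The part of this mismatch in the differences of the members cannot be told apart from that of the genotype on arrays 1 and 3.

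**Figure D1:**
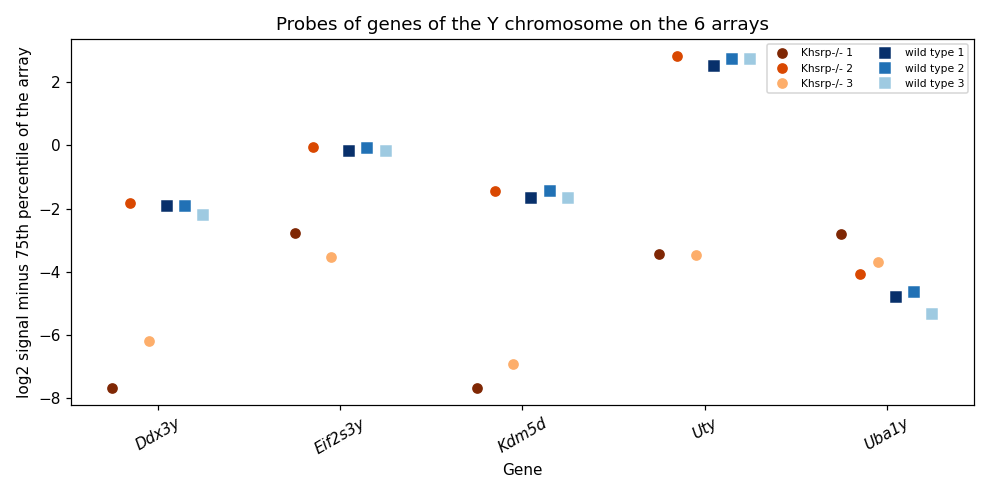
Log2 signal minus the 75th percentile of the array (vertical axis) for 4 genes of the Y chromosome and for the member *Uba1y* on each of the 6 arrays, with circles for Khsrp-/- and squares for wild type. Khsrp-/- arrays 1 and 3 lie at least 2.60 below the other arrays in *Ddx3y*, *Eif2s3y*, *Kdm5d* and *Uty*, whereas *Uba1y* is higher on all 3 Khsrp-/- arrays.

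The higher members differed by a median of 0.50 on the log2 scale, which stayed at 0.50 with bounds in place of the values of *Asb16* and *Rnf186*, whose wild type signal was at background level. The 58 other probes ranged from 0.31 for *Fbxo31* to 1.39 for *Uba1y*. *Uba1y* was dim, and with the background corrected by normexp with an offset of 50 it differed by only 0.43. With the main processing, 31 of the 60 probes differed by less than 0.5 and 4 by at least 1. The latter were *Asb16* by its bound, *Uba1y*, *Klhl1* and *Usp47*. With normexp, *Klhl1* differed by 1.13, *Usp47* by 0.85 and *Asb16* by 0.65. Members just inside the end of the list included *Fbxo31* with 0.31 and *Ubqln1* with 0.35, and probes just outside it carry no symbol. The 3 *Khsrp*-/- arrays lay above the 3 wild type arrays in 58 of the 60, the exceptions being *Fbxo31* and *Kbtbd7*, where 12.4% of all probes tested did so. With thresholds of 0.05 for the unadjusted limma p-value and 1.25 for the fold change, 54 of the 60 were called higher, where 9.26% of all 48436 probes tested were. With p-values adjusted over all probes by the Benjamini-Hochberg method, 1 of the 65 members, *Asb16*, was called, where 0.0826% of all probes were called higher and 0.0124% lower. As the list was chosen on this contrast, nothing is read from these shares. The other 1420 tested probes of the higher list differed by a median of 0.57, and all probes tested by a median of -0.00056.

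Among the *Khsrp*-/- arrays, array 1 stood closest to wild type for most higher members. The median over the 60 probes, relative to the wild type mean, was 0.32 on *Khsrp*-/- array 1, 0.52 on array 2 and 0.65 on array 3. *Khsrp*-/- array 1 was the lowest of its group in 46 of the 60 probes and array 3 the highest in 40. The other named probes of the higher list followed the same order, with medians of 0.40, 0.59 and 0.72. All 60 were above the wild type mean on *Khsrp*-/- array 2, the array that matched its label male, and so were all 1420 other tested probes of the higher list. This array was among those the list was chosen on.

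**Figure D2:**
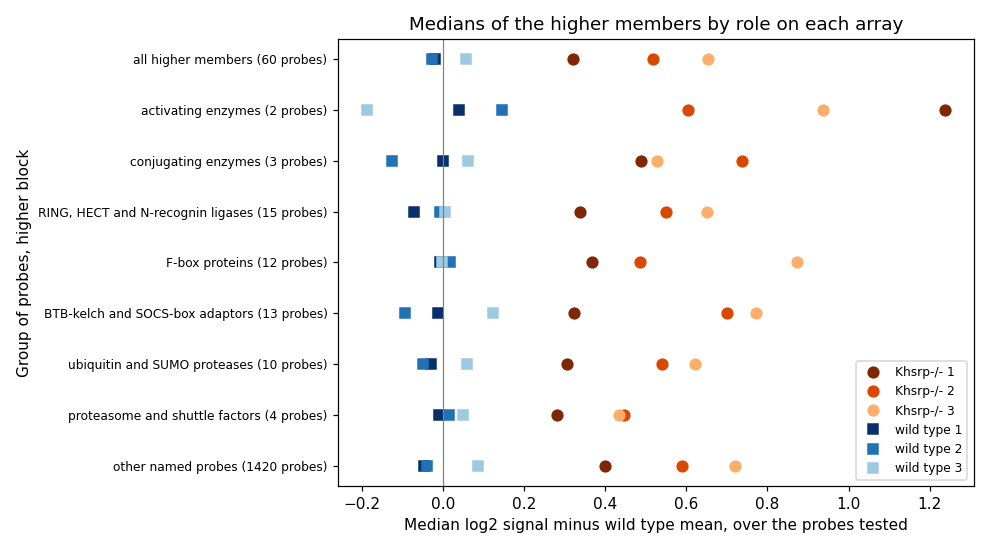
Median log2 signal minus the wild type mean (horizontal axis) over the probes of each role that were listed as higher, on each of the 6 arrays, with circles for Khsrp-/- and squares for wild type. Khsrp-/- array 1 is the lowest of its genotype for all higher members together, at 0.32, and the highest for the activating enzymes, at 1.24. The latter is the median of 2 probes, *Uba1y* at 2.11 and *Uba3* at 0.37.

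**Figure D3:**
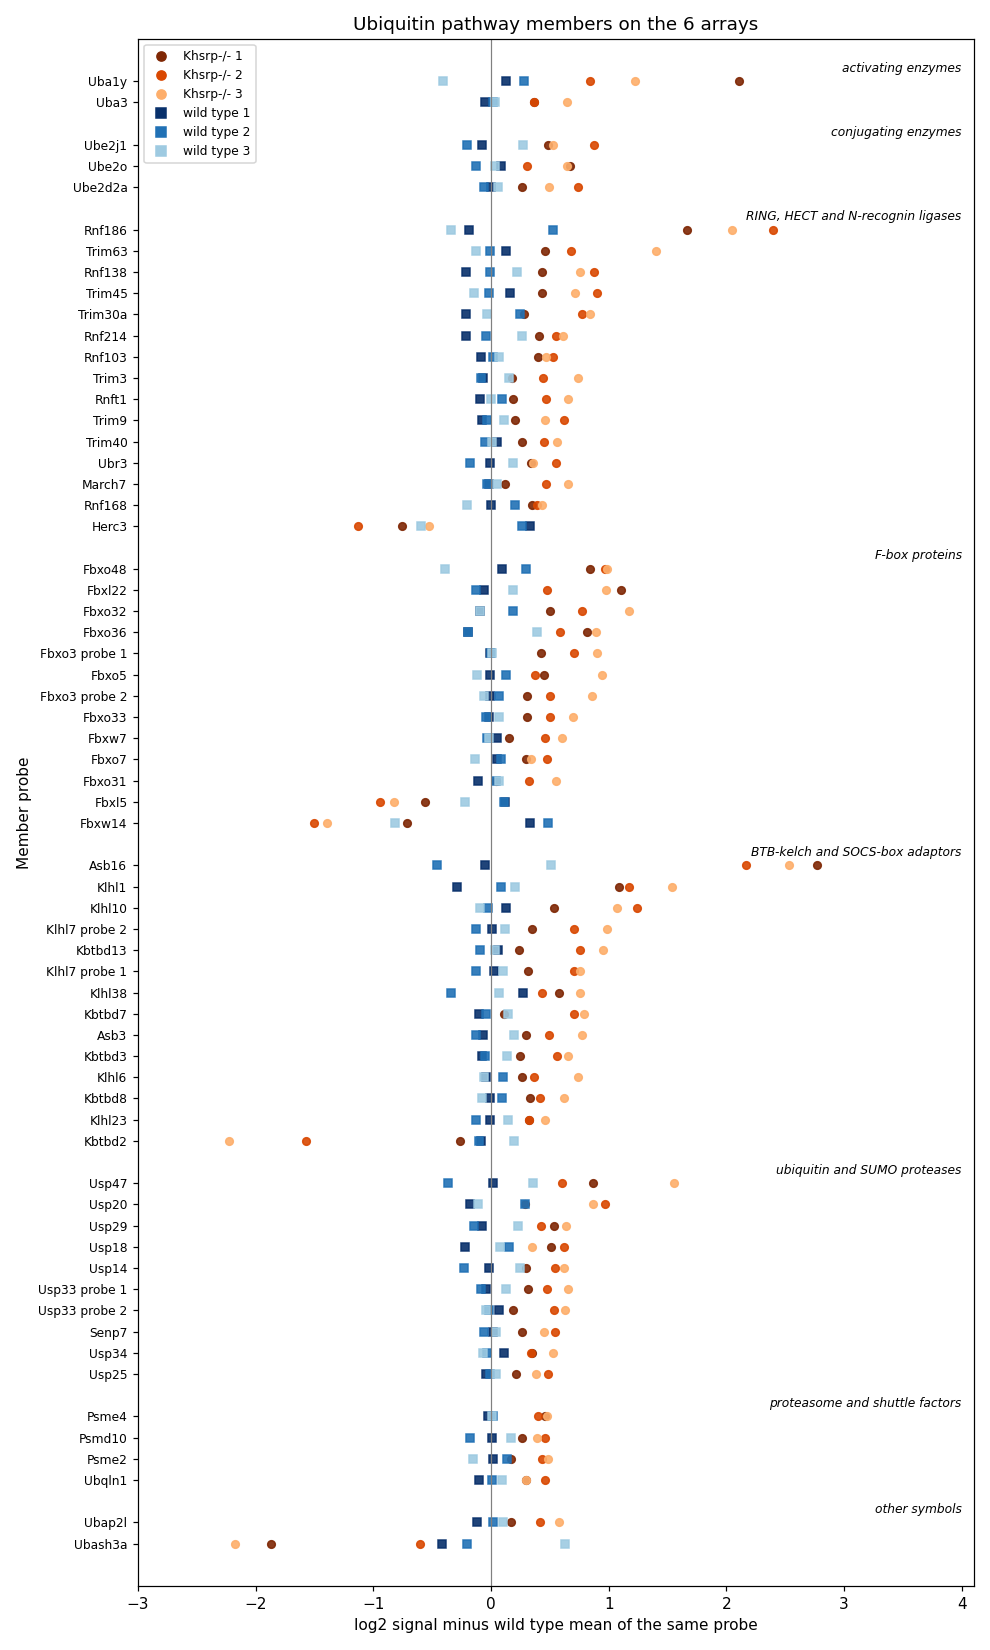
Log2 signal minus the wild type mean of the same probe (horizontal axis) for 63 of the 65 probes (vertical axis, grouped by role), with 1 point per array, circles for Khsrp-/- and squares for wild type. In 56 of the 58 higher probes shown the 3 circles lie to the right of the 3 squares, and in 3 of the 5 lower probes they lie to the left. Of all probes tested 12.4% and 9.9% did so, and nothing is read from the counts since the probes were chosen on this contrast.

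Activating enzymes begin the relay, and both named ones were higher. *Uba1y*, the Y-linked copy of the ubiquitin-activating enzyme, had log2 signals of -2.81, -4.08 and -3.69 in *Khsrp*-/- and -4.79, -4.64 and -5.33 in wild type. The groups did not overlap, and the means were -3.53 ± 0.65 and -4.92 ± 0.36 (SD, n = 3 each), a difference of 1.39. Its signal was highest on *Khsrp*-/- array 1, where *Uty*, *Kdm5d* and *Ddx3y* were near their lowest, so it did not follow the other genes of its chromosome. Its X-linked paralog *Uba1* has no named probe, and whether the probe shares signal with it was not tested. *Uba3*, the catalytic subunit of the enzyme that activates NEDD8 for cullins, had -0.59, -0.59 and -0.31 against -1.01, -0.94 and -0.92. That was a difference of 0.46, with 0.37 on *Khsrp*-/- array 2 alone.

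Conjugating enzymes carry ubiquitin to the ligase, and 3 of them were higher. *Ube2j1*, which works at the endoplasmic reticulum in the disposal of misfolded proteins, had 0.46, 0.85 and 0.50 in *Khsrp*-/- and -0.10, -0.23 and 0.25 in wild type. *Ube2o*, a large enzyme that also acts as a ligase, had 1.66, 1.29 and 1.64 against 1.08, 0.86 and 1.03. The groups did not overlap for either, and the differences were 0.63 and 0.54. *Ube2d2a*, a partner of many RING ligases, differed by 0.50.

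Ligases of the RING, HECT and N-recognin kinds made up 16 members, 15 of them higher with a median difference of 0.45. *Rnf186*, a ligase of the endoplasmic reticulum best known from the gut, had -4.79, -4.06 and -4.40 in *Khsrp*-/- and -6.64, -5.92 and -6.79 in wild type. In wild type none of the 3 arrays was well above background, so that only a bound can be given. With the main processing its signal was at least 1.41-fold higher in *Khsrp*-/-. With the background corrected by normexp with an offset of 50, *Rnf186* differed by 0.47 on the log2 scale, below that bound. *Trim63*, known as MuRF1 from the loss of muscle mass, had -0.91, -0.69 and 0.03 against -1.24, -1.37 and -1.49, a difference of 0.85 in which *Khsrp*-/- array 3 stood highest. *Trim30a*, an interferon-induced ligase, had 0.19, 0.68 and 0.75 against -0.30, 0.15 and -0.12, a difference of 0.63. On *Khsrp*-/- array 1 its signal was only just above that of wild type array 2.

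Several other ligases with known roles were higher by smaller amounts. *Rnf138* and *Rnf168*, which act at DNA double-strand breaks, differed by 0.69 and 0.39. *Trim9* and *Trim3*, both prominent in neurons, differed by 0.43 and 0.45, though on the slide that held both genotypes the differences were 0.10 and 0.02. The remaining higher ligases were *Trim45* with 0.68, *Rnf214* with 0.52, *Rnf103* with 0.46, *Rnft1* with 0.44 and *Trim40* with 0.42. *Ubr3*, of the family that reads the N-terminal residue of its substrates, and *March7*, a membrane-associated RING ligase, each differed by 0.41.

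*Herc3*, a HECT ligase, was the only ligase among the members that was listed as lower. It had -3.28, -3.64 and -3.04 in *Khsrp*-/- and -2.19, -2.25 and -3.11 in wild type, so that the groups overlapped through wild type array 3. The difference was -0.81, and -0.17 within the shared slide.

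F-box proteins choose the substrates of SCF ligases, and 11 of the 13 named ones were higher, with a median of 0.57 over 12 probes. *Fbxo48* had -4.28, -4.15 and -4.13 in *Khsrp*-/- and -5.02, -4.82 and -5.50 in wild type, a difference of 0.93. It was well above background on only 2 *Khsrp*-/- arrays and 1 wild type array. *Fbxo3* had 2 probes, which moved together. The first had 4.57, 4.85 and 5.05 against 4.14, 4.15 and 4.16, and the second 4.31, 4.50 and 4.85 against 3.99, 4.07 and 3.94. Their differences were 0.68 and 0.56, and in both the groups did not overlap.

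*Fbxo32*, known as atrogin-1 and studied beside *Trim63* in muscle, differed by 0.82. *Fbxl22* differed by 0.85, *Fbxo36* by 0.76 and *Fbxo33* by 0.50. *Fbxo5*, an inhibitor of the anaphase-promoting complex, differed by 0.59. *Fbxw7*, which targets cyclin E, MYC and NOTCH, differed by 0.41, and *Fbxo7*, a gene of inherited parkinsonism, by 0.37. *Fbxo31* had the smallest difference, 0.31, and -0.028 within the shared slide.

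The list of lower probes held 2 F-box genes. *Fbxl5*, an iron sensor that directs the degradation of IRP2, had -1.20, -1.59 and -1.46 in *Khsrp*-/- and -0.53, -0.54 and -0.86 in wild type. The groups did not overlap, and the difference was -0.78. *Fbxw14*, of a family with many close copies in rodents, had 0.15, -0.64 and -0.53 against 1.20, 1.35 and 0.05, a difference of -1.21. Here wild type array 3 lay below *Khsrp*-/- array 1, so the difference within their shared slide was 0.10, of opposite sign. Signal from its close copies cannot be told apart with this probe name alone.

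BTB-kelch and SOCS-box proteins are adaptors of other cullins, and 12 of the 13 named ones were higher. *Asb16*, a SOCS-box protein, had -3.53, -4.13 and -3.77 in *Khsrp*-/- and -6.35, -6.75 and -5.79 in wild type. As no wild type array was well above background, the signal is given as at least 2.15-fold higher in *Khsrp*-/- with the main processing. With the background corrected by normexp with an offset of 50, *Asb16* differed by only 0.65 on the log2 scale, below that bound. *Klhl1*, a kelch protein of the nervous system, differed by 1.27, with means of 1.44 ± 0.24 and 0.18 ± 0.26 (SD, n = 3 each). *Klhl10*, known from the testis, differed by 0.95.

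The 2 probes of *Klhl7* moved together. The first had 1.81, 2.20 and 2.25 in *Khsrp*-/- and 1.52, 1.37 and 1.60 in wild type, and the second 1.35, 1.71 and 1.99 against 1.01, 0.87 and 1.13. Their differences were 0.59 and 0.68. *Kbtbd13*, a gene of nemaline myopathy, differed by 0.65 and *Klhl38* by 0.59. *Kbtbd7* differed by 0.53 over all arrays but by -0.038 within the shared slide. The rest were *Asb3* with 0.52, *Kbtbd3* with 0.49, *Klhl6* and *Kbtbd8* with 0.46 each and *Klhl23* with 0.37.

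*Kbtbd2*, whose protein controls the level of a regulatory subunit of PI3 kinase, was listed as lower. It had 5.24, 3.94 and 3.28 in *Khsrp*-/- and 5.42, 5.41 and 5.70 in wild type. *Khsrp*-/- array 1 lay close to wild type and arrays 2 and 3 far below, so that the SD was 0.998 in *Khsrp*-/- and 0.17 in wild type around a difference of -1.36.

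Ubiquitin and SUMO proteases were all listed as higher, with a median of 0.48 over 10 probes of 9 genes. *Usp47*, a deubiquitinase of base excision repair, had 0.06, -0.20 and 0.75 in *Khsrp*-/- and -0.79, -1.16 and -0.45 in wild type, a difference of 1.01. *Usp20* had -3.50, -2.83 and -2.93 against -3.98, -3.51 and -3.91, a difference of 0.71. On array 1 it was only just above wild type array 2. *Usp18*, which removes the interferon-induced modifier ISG15, had -1.22, -1.11 and -1.38 against -1.95, -1.58 and -1.66, a difference of 0.49.

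*Usp33*, a close relative of *Usp20*, had 2 probes that moved together. The first had 2.95, 3.11 and 3.29 in *Khsrp*-/- and 2.59, 2.55 and 2.76 in wild type, and the second 0.81, 1.16 and 1.25 against 0.69, 0.60 and 0.58. Their differences were 0.48 and 0.45. *Usp29*, an imprinted gene, differed by 0.53, and *Usp14*, which works on the proteasome itself, by 0.49. *Senp7*, which trims chains of SUMO, differed by 0.42, *Usp34* by 0.40 and *Usp25* by 0.36.

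Proteasome and shuttle factors had the smallest median of the roles, 0.37 over 4 probes. *Psme4*, the activator PA200, had 1.33, 1.26 and 1.34 in *Khsrp*-/- and 0.83, 0.88 and 0.87 in wild type. The difference was 0.45, and the arrays of a genotype lay close together, with an SD of 0.04 in *Khsrp*-/- and 0.03 in wild type. *Psmd10*, or gankyrin, which helps to assemble the regulatory particle, had 0.17, 0.37 and 0.31 against -0.08, -0.27 and 0.08, a difference of 0.37. *Psme2*, a subunit of the interferon-induced activator PA28, had -0.81, -0.54 and -0.50 against -0.96, -0.85 and -1.13, a difference of 0.36. *Ubqln1*, which shuttles marked proteins to the proteasome, differed by 0.35. No subunit of the catalytic core was named.

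The rule also took 2 genes by their symbol alone. *Ubash3a*, a phosphatase-like protein of T cells with a ubiquitin-binding domain, had the most negative difference of all members with the main processing. It was dim, being well above background on 2 of the 3 *Khsrp*-/- arrays. With the background corrected by normexp with an offset of 50, *Ubash3a* differed by only -0.33, beside -1.34 for *Kbtbd2* and -1.08 for *Fbxw14*. With the main processing *Ubash3a* had -4.89, -3.62 and -5.19 in *Khsrp*-/- and -3.43, -3.22 and -2.39 in wild type, a difference of -1.55. On *Khsrp*-/- array 2, which matched its label male, the difference from the wild type mean was only -0.60. *Ubap2l*, known from stress granules, had 2.33, 2.58 and 2.73 against 2.04, 2.17 and 2.26, a difference of 0.39.

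The 5 lower members had a median of -1.21, beside -1.07 over the other 261 probes of the lower list. The 3 *Khsrp*-/- arrays lay below the 3 wild type arrays in the members *Fbxl5*, *Kbtbd2* and *Ubash3a*, where 9.9% of all probes tested did so. All 5 lower members were called lower by the same thresholds, where 7.03% of all probes tested were, and nothing is read from this since they were chosen on the contrast. Their spread was wider than that of the higher members. The median SD between arrays of a genotype was 0.59 for the lower and 0.18 for the higher members. It was 0.48 over the other lower and 0.20 over the other higher probes of the list, so this contrast is not particular to the members.

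Only 1 slide held both genotypes, and the differences within it were smaller. *Khsrp*-/- array 1 minus wild type array 3 had a median of 0.31 over the higher members and -0.34 over the lower members. It had the same sign as the overall difference in 58 of 60 and 4 of 5. Over the other tested probes of the list the medians were 0.33 and -0.43, with the same sign in 1369 of 1420 and 250 of 261. Both arrays were among those the list was chosen on, so nothing is read from the signs. With the slide as a block, 7 of the 60 higher and 1 of the 5 lower members were called, beside 1762 and 1093 of all probes tested. In that fit the genotype difference is that of the pair on the shared slide alone, and its variation is judged from the other slides. This pair of arrays holds *Khsrp*-/- array 1, which went against its label male, and the part of slide and of array cannot be told apart. Without scaling between arrays the median over all probes tested was shifted by -0.29, 9 of the 60 higher members were called, and the probes called over all were 1221 higher and 7287 lower, against 4484 and 3405 with scaling.

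Against the 3 wild type arrays, *Khsrp*-/- array 2 on its own gave a median of 0.52 over the higher and -1.13 over the lower members. All 65 probes kept the sign they had with all arrays. Among the other tested probes of the list, 1420 of 1420 higher and 254 of 261 lower ones did so too. The list was chosen with this array included, so nothing is read from the signs. With this array alone 35 higher and 2 lower members were called, where 9.17% of all probes tested were called higher and 13.3% lower, and as 1 array has no replicate it was assumed to vary like the wild type arrays. By this measure *Klhl1* differed by 1.17, *Uba1y* by 0.84 and *Usp47* by 0.60. The interferon-induced members were 0.77 for *Trim30a*, 0.62 for *Usp18* and 0.44 for *Psme2*. Among the lower members *Kbtbd2* was -1.57, *Fbxw14* -1.51, *Herc3* -1.13, *Fbxl5* -0.94 and *Ubash3a* -0.60. The differences of *Uba1y*, *Ube2o*, *Fbxl22*, *Fbxo5*, *Usp47* and *Ubash3a* were over 1.5 times larger with all 3 *Khsrp*-/- arrays than with array 2 alone.

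**Figure D4:**
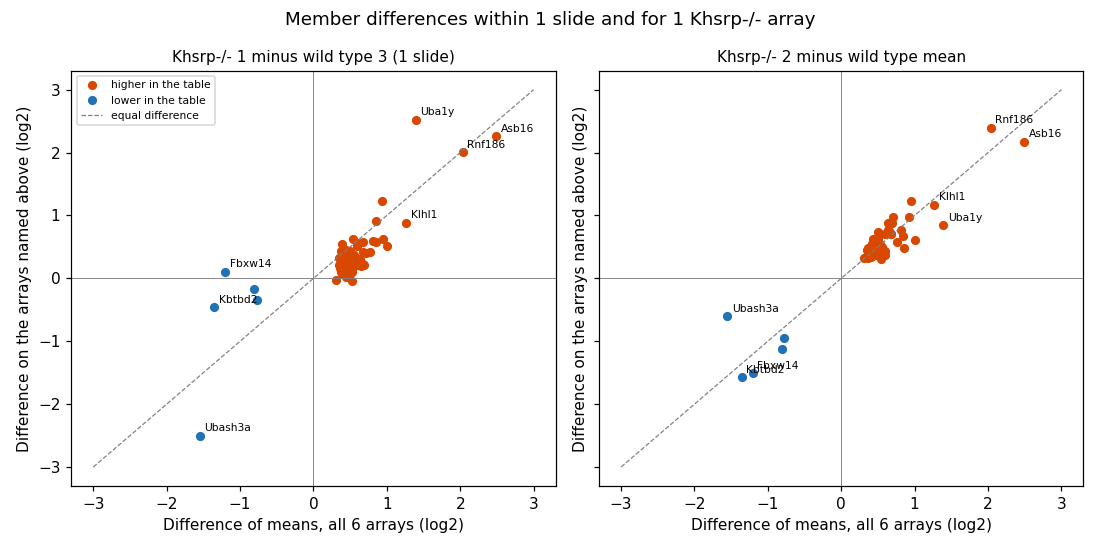
Difference of the genotype means over all 6 arrays (horizontal axis, log2) for the 65 probes against Khsrp-/- array 1 minus wild type array 3, taken from their scan time to share a slide (left), and against Khsrp-/- array 2 minus the wild type mean (right). Most points of the left panel lie nearer 0 than the dashed line of equal difference, with a median of 0.31 over the higher members against 0.52 in the right panel. The points of *Asb16* and *Rnf186* are as measured, with wild type at background level.

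Other genes of the pathway, from a list of 87 symbols, were named in 10 cases, of which *Uty* is no ubiquitin gene and is given above. Of the other 9, 8 were called higher and 1 lower, where 9.26% and 7.03% of all probes tested were, and nothing is read from this since all had been chosen on this contrast. *Nae1*, the partner of *Uba3* in activating NEDD8, differed by 0.44. *Cand1*, which exchanges the adaptors of cullins, differed by 0.67. *Cops2* and *Cops7a*, subunits of the signalosome that takes NEDD8 off cullins, differed by 0.50 and 0.45. *Skp2*, an F-box protein of the cell cycle, differed by 0.45, *Cdc20*, an activator of the anaphase-promoting complex, by 0.44, *Birc3*, a RING protein of cell death signalling, by 0.52 and *Hace1*, a HECT ligase, by 0.41. *Smurf1*, a HECT ligase of the TGF-beta pathway, differed by -0.81.

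Interferon-induced genes formed a second list of 34 symbols, and 11 were named, among them the members *Trim30a*, *Usp18* and *Psme2*. They too have symbols only because they were chosen on this contrast. In all 11 the *Khsrp*-/- arrays lay above the wild type arrays, where 12.4% of all probes tested did so, and nothing is read from this. The 3 members differed by 0.63, 0.49 and 0.36, beside 7.17 for *Xaf1*, a partner of XIAP, 3.38 for *Tlr7*, a receptor for RNA, and 2.10 for *Cxcl10*, a chemokine. *Ifih1*, a sensor of double-stranded RNA, stayed at background level in wild type and was at least 2.77-fold higher in *Khsrp*-/-. *Ifi44* differed by 1.30, *Oas1a* by 0.62, *Ifi27* by 0.48 and *Bst2* by 0.45. *Isg15*, the modifier that *Usp18* removes, has no named probe. Marker genes of neurons, astrocytes and the striatum were named in 1 case each, *Snap25* with 0.55, *Slc1a2* with 0.48 and *Drd1* with 1.19. *Drd1* lay above the wild type mean by 0.61, 2.08 and 0.88, and *Tlr7* by 2.69, 4.98 and 2.47. In both genes *Khsrp*-/- array 2, used on its own above, thus stood apart. Markers of inhibitory neurons, oligodendrocytes, microglia and vessels were named in 0 cases, so the makeup of the tissue was not tested.

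**Figure D5:**
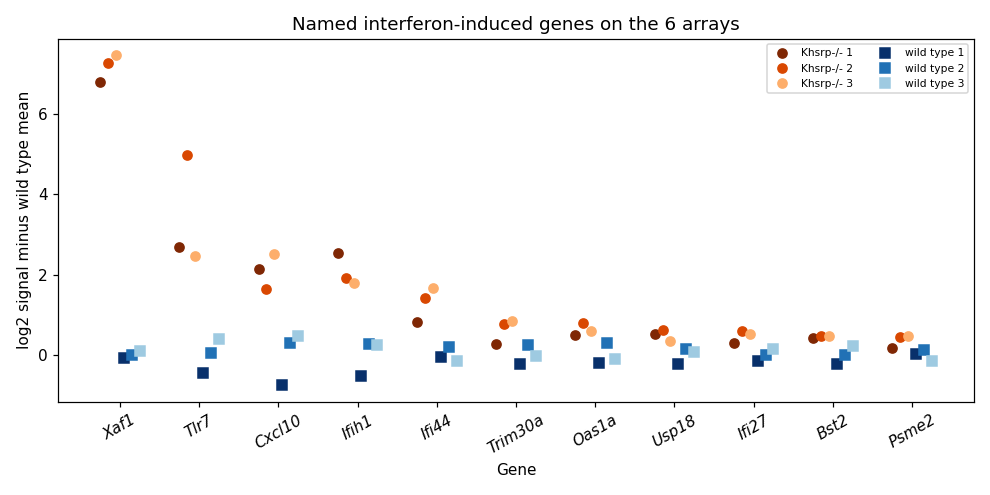
Log2 signal minus the wild type mean (vertical axis) of the 11 named interferon-induced genes on each of the 6 arrays, with circles for Khsrp-/- and squares for wild type. The circles lie above the squares in all 11, with differences of 7.17 for *Xaf1* and of 0.63, 0.49 and 0.36 for the members *Trim30a*, *Usp18* and *Psme2*. Of all probes tested 12.4% did so, and nothing is read from the count since the genes were chosen on this contrast.

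Promoters are shown where they hold a motif that was searched for, since several members belong to the interferon-induced genes. RefSeq promoters of build GRCm38.p6, each a window of 300 bases around a start site, were matched for 47 of the 62 genes. The core of the interferon-stimulated response element, GAAANNGAAA on either strand, was in promoters of *Trim30a*, *Fbxo36* and *Fbxo7*, which is 6.38% of the 47 genes beside 3.99% of all genes in the table. It was not in those of *Psme2*, and it was in 5 of the 8 named interferon-induced genes with a promoter there. The cyclic AMP response element, TGACGTCA, was in the promoter of *Usp29*, beside 2.03% of all genes. The windows are chr7:104465144-104465443 on the minus strand for *Trim30a*, chr1:84839591-84839890 on the plus strand for *Fbxo36*, chr10:86021904-86022203 on the plus strand for *Fbxo7* and chr7:6730333-6730632 on the plus strand for *Usp29*. Capitals mark the motif, and a match is a description of these letters and not a site of binding.
Trim30a: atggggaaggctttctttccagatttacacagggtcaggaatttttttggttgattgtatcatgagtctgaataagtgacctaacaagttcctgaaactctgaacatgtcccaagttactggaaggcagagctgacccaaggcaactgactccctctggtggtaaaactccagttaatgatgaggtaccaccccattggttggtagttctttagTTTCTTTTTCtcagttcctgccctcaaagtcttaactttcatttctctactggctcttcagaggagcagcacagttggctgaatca
Fbxo36: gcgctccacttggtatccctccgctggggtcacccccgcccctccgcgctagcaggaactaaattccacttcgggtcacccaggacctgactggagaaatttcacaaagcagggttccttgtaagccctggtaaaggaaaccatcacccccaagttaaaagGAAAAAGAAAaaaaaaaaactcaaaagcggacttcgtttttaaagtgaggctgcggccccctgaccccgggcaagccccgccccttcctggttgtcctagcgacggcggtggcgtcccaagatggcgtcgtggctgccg
Fbxo7: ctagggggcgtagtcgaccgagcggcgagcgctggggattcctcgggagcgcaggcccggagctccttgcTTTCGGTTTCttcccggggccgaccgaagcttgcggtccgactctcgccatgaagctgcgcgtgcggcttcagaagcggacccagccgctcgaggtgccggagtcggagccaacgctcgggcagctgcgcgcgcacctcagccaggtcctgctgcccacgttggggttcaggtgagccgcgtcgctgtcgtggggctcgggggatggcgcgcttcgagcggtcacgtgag
Usp29: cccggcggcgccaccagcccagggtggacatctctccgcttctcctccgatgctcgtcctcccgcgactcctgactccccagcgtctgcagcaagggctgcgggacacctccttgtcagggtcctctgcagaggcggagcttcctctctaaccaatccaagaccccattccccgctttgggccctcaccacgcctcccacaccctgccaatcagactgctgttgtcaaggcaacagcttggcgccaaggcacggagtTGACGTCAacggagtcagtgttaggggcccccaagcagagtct
The match in the *Trim30a* window shown lay close before the start site, and that in a second window of this gene, chr7:104446076-104446375 on the minus strand, close after its own start site. The match in *Usp29* lay close after the start site, whereas those in *Fbxo36* and *Fbxo7* lay farther upstream. *Trim30a* differed by 0.63, *Fbxo36* by 0.76, *Fbxo7* by 0.37 and *Usp29* by 0.53, all within the range of the other higher members.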

How the data were processed

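Neocortex RNA of 3 *Khsrp*-/- and 3 wild type adult mice was measured on 1-colour Agilent arrays. The authors deposited the scanner output of Feature Extraction 11.0.1.1, whose processed signal is an intensity with the background subtracted and no scaling between arrays, with median spot and background intensities and marks of 0 or 1. They also deposited normalized log2 values, whose normalization is not given in the sources used here. Symbols came from the study's list of changed probes, whose fold changes and p-values were not used. Lower entries were matched to probes by their raw values. Members and lists were chosen with earlier results of these data known.

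Spots marked as controls or outliers, and 300 negative controls known by name, were removed. Repeat spots were averaged as log2 intensity, which gave 60915 probe names, and every array was scaled by subtraction of its 75th percentile. Only probes that exceeded background clearly on 3 or more arrays entered the comparison of genotypes, made with limma 3.58.1 in R 4.3.3. Calls used an unadjusted p-value threshold of 0.05 and a fold threshold of 1.25. The fit was tested on simulated data. All members were grouped by role and are named, except for 2 genes that are not reported here but stay in the counts. Values of every array are given for the 2 largest differences of each role, members with 2 probes, lower members, interferon-induced members and members not well above background in 1 genotype. *Klhl1* and the genes of the Y chromosome were singled out after their values were seen. For a genotype not above background, the fold is a bound against the lowest signal well above background on each array. Such a bound holds for the main processing only. The number of arrays limits the precision, with a median residual SD of 0.245. A shared scan time was read as a shared slide. Alternatives were other scalings, normexp with an offset of 50, the authors' values, other filters, eBayes with a trend, the methods' t-test, each array left out, replicate and slide blocks, a 1.5-fold threshold and, chosen after seeing the data, *Khsrp*-/- array 2 alone. Protein sequences were not used here.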

Additional observations from a re-analysis of the deposited data

How the results depend on the processing

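Member differences kept their sign under the 18 alternatives that refit them, except the slide as a block, and the filter for all arrays left 60 of the 65 probes. With the slide as a block, *Fbxo31* was -0.028, *Kbtbd7* -0.038 and *Fbxw14* 0.10, the same values as within the shared slide, on which this fit rests. With that block, 7 higher and 1 lower members were called, the medians were 0.31 and -0.34, and 1762 probes were called higher and 1093 lower over all. With the slide as a random block, 2217 probes were called lower. Without scaling, 9 higher members were called, the medians were 0.20 and -1.50, and 1221 probes were called higher and 7287 lower. Normexp gave 3 lower members called, beside 2787 probes called lower over all, and a median of -0.56 over the lower members. The methods' t-test called 1 lower member and 1817 probes lower. At 1.5-fold, 22 higher members and 2728 probes were called higher. *Khsrp*-/- array 2 alone, assumed to vary like the wild type arrays, gave 35 higher and 2 lower members called and 6447 probes called lower.

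With 1 array left out, between 19 and 59 higher members and between 2 and 4 lower members were called. The lowest count of higher members was without wild type array 1, and leaving out *Khsrp*-/- array 2 gave 33, *Khsrp*-/- array 3 gave 27 and wild type array 2 gave 24. Lower members called were 2 without *Khsrp*-/- array 2 and 3 without *Khsrp*-/- array 3 or wild type array 2. Medians lay between 0.42 and 0.58 for the higher and between -1.39 and -0.94 for the lower members. Over all probes, between 2520 and 6641 were called higher and between 1495 and 6409 lower. The counts were 2823 and 1966 without *Khsrp*-/- array 3, 2520 and 1495 without wild type array 1, 2752 and 1656 without wild type array 2, and 6409 lower without *Khsrp*-/- array 1. Without *Khsrp*-/- array 2 they were 4221 and 2421. With the replicate number as a block, 35 higher members were called, beside 3540 probes called higher over all. Same-numbered arrays did not deviate together, with correlations of -0.31, 0.105 and -0.31, and the numbers were not taken as pairs. The causes were not tested.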
